A study of Mus musculus with 6 samples.

Results

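The 8 genes described here encode the growth factors GM-CSF (Csf2), interleukin-3 (Il3) and M-CSF (Csf1), the type 2 cytokines IL-4, IL-5, IL-13 and IL-9 (Il4, Il5, Il13, Il9), and GATA-3 (Gata3), the transcription factor that directs type 2 helper T cells. They were picked by symbol from the 34745 genes of the deposited table, with earlier results of these data known, and all 8 were found. Their PM2.5 against PBS differences are therefore given as a description. The edgeR calls that some of them received are counted once beside those of all genes and support nothing. RNA was sequenced from 6 libraries, 3 per group, of mouse CD4 T cells. The mice were C57BL/6 females, 6 weeks old. Their naive splenic cells were stimulated with plate-bound antibodies to CD3 and CD28 for 4 days under conditions that drive Th17 cells, the helper cells that make IL-17. Every culture, control or treated, held IL-6 (20 ng/ml), IL-23 (10 ng/ml), TGF-beta (2 ng/ml) and IL-2 (5 ng/ml), and blocking antibodies to IFN-gamma and to IL-4 (5 µg/ml each). The PM2.5 group was given fine airborne particulate matter as a suspension at 100 µg/ml from 6 h of stimulation, and the control group PBS. The sources do not say whether replicates were separate cultures or animals, so the spread between them may be technical.

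GM-CSF and IL-3 are small secreted proteins that activated T cells make to expand and activate myeloid cells. Both signal through a specific alpha chain paired with a shared beta chain, as does IL-5, whereas M-CSF acts on macrophages through a receptor kinase of its own. IL-4, IL-5 and IL-13 are the classical products of Th2 cells. Their genes lie together in 1 cluster that GATA-3 opens, and IL-4 feeds back on this programme through STAT6, a loop that an antibody to IL-4 interrupts. IL-9 is made by a related helper state that TGF-beta and IL-4 favour.

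In these Th17 cultures Csf2 was 23.3-fold higher with PM2.5, and Il3, at 0 counts in every control library, was at least 109.7-fold higher. Csf1 was 4.09-fold and Il9 2.42-fold lower with PM2.5. Gata3 stood 1.32-fold higher with PM2.5, Il13 was low in all libraries, and Il4 and Il5 had from 0 to 5 counts per library. RefSeq promoter windows (GRCm38.p6, the assembly that mm10 names) were found for all 8 genes. Those of the 4 genes with the largest differences are shown, as the 250 bases before the RefSeq start, on the minus strand, since these genes are set apart by their opposite directions. Capitals mark GGAAA, the core of NFAT sites, and GATAA, a core that GATA-3 and its relatives bind, on either strand. They also mark TATAA, the TATA box, and the AP-1 site TGANTCA.
Il3 (chr11:54267280-54267529): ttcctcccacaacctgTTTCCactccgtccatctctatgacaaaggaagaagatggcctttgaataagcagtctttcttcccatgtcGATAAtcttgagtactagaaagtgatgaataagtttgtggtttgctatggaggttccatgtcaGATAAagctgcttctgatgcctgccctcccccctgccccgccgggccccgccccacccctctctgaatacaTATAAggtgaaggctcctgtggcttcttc
Csf2 (chr11:54249900-54250149): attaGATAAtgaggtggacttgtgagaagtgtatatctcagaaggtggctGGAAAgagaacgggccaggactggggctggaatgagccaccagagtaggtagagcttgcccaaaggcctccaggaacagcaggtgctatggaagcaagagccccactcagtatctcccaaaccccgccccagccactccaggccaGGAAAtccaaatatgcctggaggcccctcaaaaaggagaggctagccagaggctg
Csf1 (chr3:107760470-107760719): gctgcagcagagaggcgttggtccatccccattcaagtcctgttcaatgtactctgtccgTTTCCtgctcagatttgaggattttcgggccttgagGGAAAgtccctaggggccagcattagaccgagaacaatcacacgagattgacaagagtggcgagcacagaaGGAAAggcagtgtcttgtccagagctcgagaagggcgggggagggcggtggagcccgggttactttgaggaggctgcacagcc
Il9 (chr13:56482258-56482507): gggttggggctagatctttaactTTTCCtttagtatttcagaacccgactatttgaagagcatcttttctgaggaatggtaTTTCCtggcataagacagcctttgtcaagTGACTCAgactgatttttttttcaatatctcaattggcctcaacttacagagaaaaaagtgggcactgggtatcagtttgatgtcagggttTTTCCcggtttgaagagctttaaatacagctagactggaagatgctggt

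The Il3 window held GATAA 2 times and GGAAA 1 time. It also held TATAA, whose first base lies 29 bases before the start. The Csf2 window held GGAAA 2 times and GATAA 1 time, with no TATAA. Its RefSeq start lies 232 bases upstream of the gene's start in the table, so the bases just before the table's start are not in this window, and the window falls within the span of the antisense gene Gm12223. The Csf1 window held GGAAA 3 times and none of the other motifs. The Il9 window held GGAAA 3 times and was the only window of the 9 of these genes (Il4 has 2 starts) with TGANTCA. The Il13 window, not printed, held TATAA with its first base at the same 29 bases before its start (where TTATAA matches on both strands), GGAAA 4 times and GATAA 1 time. Among 32851 RefSeq windows of this length, 55.6% held GGAAA, 22.6% GATAA, 22.8% TATAA and 6.75% TGANTCA. A search for TGACG, a core of CREB and ATF sites that 17.8% of windows hold, found it only in Il13 (overlapping no other motif), and TTCNNNGAA, the STAT site, which 7.02% hold, in none of the 9 windows. A match is a string of letters and not a bound site.

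Library totals were 19511561 to 22353131 counts in the control group and 25397965 to 27215853 in the PM2.5 group, so every PM2.5 library was deeper. Of all genes, 12967 had enough counts to be tested. Of these, 9149 (70.6%) had a Benjamini-Hochberg adjusted p under 0.05 by edgeR (quasi-likelihood F test), which is what called, rose and fell mean below, and the groups did not overlap for 74.9%. Markers of CD4 T cells were abundant, at a sum of 3272 to 3301 CPM (counts per common library total) for 7 genes in the control and 2795 to 2835 CPM in the PM2.5 libraries. Some of these cytokines are also made by mast cells and basophils. The sum of 10 markers of those cells went from 18.6 to 20.1 CPM in the control to 62.7 to 63.5 CPM with PM2.5, nearly all of it the growth factor receptor gene Kit. Without Kit, the other 9 summed to 0.358 to 0.410 CPM in the control and 0.345 to 0.478 CPM with PM2.5. Of these, Fcer1a, Prss34 and Mcpt4 were at 0 in all 6 libraries. Hdc had 9 counts in the control group and 22 in the PM2.5 group, Gata2 5 and 6, and Mcpt8 0 and 1. Cpa3 had 5 and 2 counts, Ms4a2 3 and 0, and Cma1 2 and 0. Eosinophil markers (6 genes, Ear1 and Ear2 at 0) summed to 1.26 to 2.10 CPM and 0.588 to 0.945 CPM. Type 2 innate lymphoid markers (6 genes, Klrg1 and Ptgdr2 at 0) summed to 5.89 to 8.71 CPM and 4.84 to 5.90 CPM, where the groups met. Their leading gene, Calca, had means of 6.24 and 1.99 CPM. Il1rl1 of the same list, named after its values were seen, went the other way. It rose from 1.09 ± 0.47 to 3.43 ± 0.15 CPM (log2 fold change 1.63, SE 0.25, edgeR adjusted p = 0.000203). Macrophage and monocyte markers (8 genes, Lyz2 at 0) summed to 6.04 to 8.21 CPM and 3.09 to 3.37 CPM. The remaining lists were lower with PM2.5. The 6 neutrophil genes (S100a8, S100a9, Elane and Camp at 0) went from 5.28 to 6.27 CPM to 0.551 to 0.689 CPM. The 6 B cell genes (Ms4a1 at 0) went from 70.9 to 76.9 CPM to 19.5 to 21.4 CPM. Likewise, 6 NK, CD8 and gamma-delta T cell genes (Ncr1 at 0) went from 75.2 to 84.8 CPM to 29.9 to 32.7 CPM, and 6 stromal and endothelial genes (Col3a1 at 0) from 82.2 to 87.4 CPM to 47.2 to 50.6 CPM. In several lists 1 leading gene held most of the sum. Its control and PM2.5 means were 84.3 and 48.1 CPM for Pecam1 (stromal and endothelial) and 72.6 and 20.2 CPM for Ighm (B cell). They were 5.66 and 0.611 CPM for Ly6g (neutrophil) and 1.40 and 0.462 CPM for Ccr3 (eosinophil). The sums of the lists with these leading genes thus mostly follow 1 gene each. Klrd1, which led the NK, CD8 and gamma-delta T cell list, held a smaller part of its sum, with means of 39.2 and 6.95 CPM. None of the sums counts cells. The part of these cell types in the results below was not tested.

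Of the 8 genes, 6 passed the filter on low counts, Il3 solely through the PM2.5 libraries where it is high, and Il4 and Il5 did not. In the fit over all genes, 3 of those 6 were called higher (Csf2, Il3, Gata3), 2 lower (Csf1, Il9) and 1 neither (Il13), beside 35.2% of all tested genes higher and 35.3% lower. The genes were chosen with this contrast known, and the filter fixed the direction of Il3, so these calls are no test of the genes and nothing is read from the count.

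Csf2 (ENSMUSG00000018916, mm10 chromosome 11, 54247271 to 54249667, minus strand) encodes GM-CSF, which T cells use to recruit and arm monocytes, dendritic cells and neutrophils. It had 24, 21 and 28 counts in the control libraries and 705, 638 and 649 in the PM2.5 libraries. Per gene length and depth these are 1.35, 1.35 and 1.57 FPKM (counts scaled to gene length and library total) against 32.4, 30.5 and 31.9 FPKM. The groups lay far apart and no library stood out within either. The means were 1.11 ± 0.09 and 25.9 ± 0.78 CPM (SD, n = 3), a log2 fold change of 4.53 (SE 0.09). Only 32 of the 12967 tested genes had a larger log2 fold change. By FPKM, Csf2 moved from the percentile 25.2 of the tested genes to the percentile 88.0. The coefficient of variation was 8.29% in the control and 3.03% with PM2.5, below the 20.3% and 3.88% that counting alone gives at these depths. In bulk RNA, a larger share of cells that make a transcript cannot be told apart from more transcript per cell, here and for the genes below. Gm12223, which overlaps Csf2 on the other strand, was at 0 counts in every library.

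Il3 (ENSMUSG00000018914, chromosome 11, 54265303 to 54267277, minus strand) encodes interleukin-3, a growth factor of multipotent progenitors, mast cells and basophils. It had no count in any control library and 124, 154 and 109 counts with PM2.5, or 7.24, 9.37 and 6.82 FPKM. A count of 0 allows up to 0.213 to 0.244 FPKM per control library, taking 3 counts as the limit, for counting error only. The mean with PM2.5 was 5.03 ± 0.88 CPM (SD, n = 3). Set against 3 counts over the control group (0.0458 CPM), that is at least 109.7-fold higher. Replicate 2 was the highest of the PM2.5 libraries, and the coefficient of variation of 17.5% was above the 8.80% that counting gives. Il3 was thus more uneven than Csf2 within the same 3 libraries, where the ratio of Csf2 to Il3 in FPKM ran from 3.26 to 4.68.

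**Figure D1:**
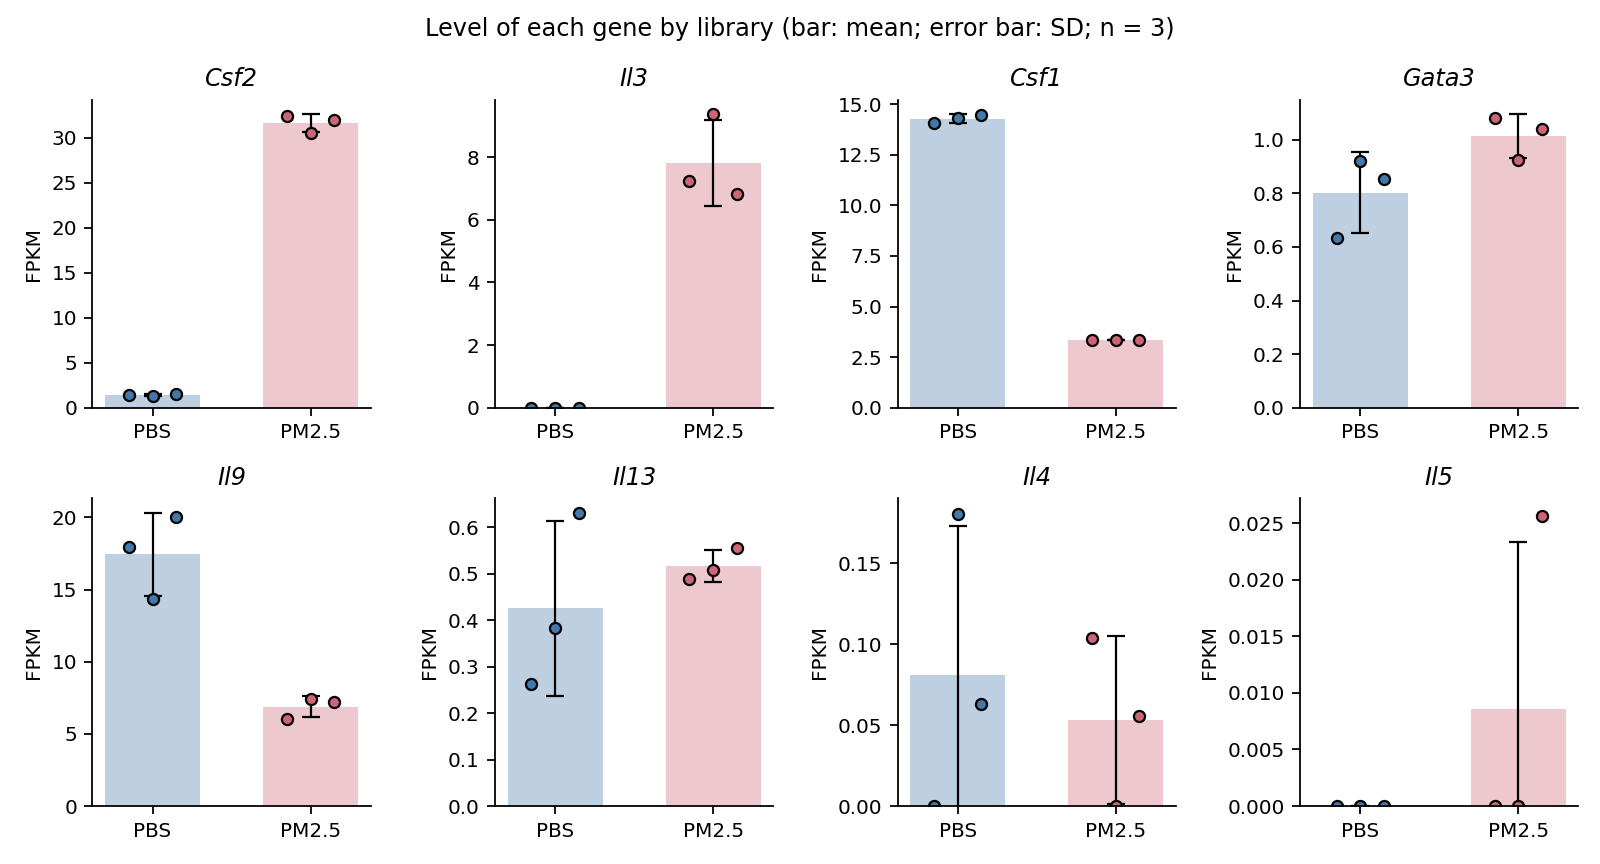
FPKM of each of the 8 genes (vertical axes, each with its own scale from 0) in the PBS control and PM2.5 libraries; points are libraries, bars means and error bars SD (n = 3), drawn down to 0 at most. Csf2 rests at 1.35 to 1.57 FPKM in the control and 30.5 to 32.4 FPKM with PM2.5, Csf1 and Il9 lie lower with PM2.5, and Il4 and Il5 stay below 0.2 FPKM throughout.

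Csf1 (ENSMUSG00000014599, chromosome 3, 107741048 to 107760469, minus strand) encodes M-CSF, the survival factor of macrophages. It went the other way from Csf2. Its counts were 2478, 2226 and 2572 in the control and 725, 696 and 673 with PM2.5, which are 14.1, 14.3 and 14.5 FPKM against 3.35, 3.35 and 3.33 FPKM. All control libraries exceeded all PM2.5 libraries. Means were 111 ± 1.47 and 27.2 ± 0.09 CPM (SD, n = 3), a log2 fold change of -2.03 (SE 0.04). The 3 PM2.5 libraries varied by 0.332%, less than the 3.79% that counting gives. Of the tested genes, 505 had a lower log2 fold change.

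By FPKM, though not by counts, the 2 colony-stimulating factor genes exchanged places. In the control, Csf1 stood 9.24 to 10.7 times above Csf2 in FPKM, and with PM2.5 Csf2 stood 9.11 to 9.67 times above Csf1. Counts of Csf1 stayed above those of Csf2 with PM2.5, at 725, 696 and 673 against 705, 638 and 649. FPKM here takes 1 length per gene, 7954 bases for Csf1 and 800 for Csf2. The exchange, and the sum and shares that follow, depend on these lengths. The summed FPKM of Csf2, Il3 and Csf1 was 15.7 ± 0.31 in the control and 42.8 ± 0.60 with PM2.5 (SD, n = 3). As a share of the FPKM of all 8 genes, Csf2 took 4.13 ± 0.16% in the control and 61.7 ± 2.78% with PM2.5, Csf1 41.7 ± 3.57% and 6.52 ± 0.09%, and Il3 15.2 ± 2.44% with PM2.5. A share of a sum depends on its other terms, so these shares are not independent of each other.

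Il9 (ENSMUSG00000021538, chromosome 13, 56479277 to 56482246, minus strand) encodes interleukin-9, a growth factor for mast cells and T cells. Counts of 213, 150 and 240 in the control compared with 88, 104 and 98 with PM2.5. These are 17.9, 14.3 and 20.0 FPKM against 6.03, 7.43 and 7.20 FPKM. The lowest control library, replicate 2, was still well above the highest PM2.5 library. Means were 9.14 ± 1.47 and 3.77 ± 0.41 CPM (SD, n = 3), a log2 fold change of -1.28 (SE 0.14). The control libraries varied by 16.0%, where counting gives 7.05%. With 50.4 ± 4.24% of the summed FPKM of the 8 genes in the control, Il9 was the most abundant per length there. It is the only interleukin of the type 2 group above 1 FPKM.

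Gata3 (ENSMUSG00000015619, chromosome 2, 9857078 to 9890034, minus strand) was low in both groups. Counts were 75, 96 and 102 in the control and 157, 129 and 141 with PM2.5, or 0.634, 0.921 and 0.854 FPKM against 1.08, 0.924 and 1.04 FPKM. The highest control library, replicate 2, and the lowest PM2.5 library, also replicate 2, nearly met. Means of 4.20 ± 0.79 and 5.54 ± 0.44 CPM (SD, n = 3) gave a log2 fold change of 0.41 (SE 0.15). Without control replicate 1, the lowest library, it was 0.26, and the call was lost there and in 5 of the 9 other alternatives that tested the gene. By FPKM, Gata3 stood at the percentile 18.1 of tested genes in the control and 23.4 with PM2.5. The table's span of Gata3 reaches 11434 bases upstream of the RefSeq start. The 3 genes that overlap it there, Gm13256, 4930412O13Rik and 9230102O04Rik, were at 0 counts in all libraries.

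Il13 (ENSMUSG00000020383, chromosome 11, 53631324 to 53634702, minus strand), which drives mucus production and alternative macrophage activation, had 7, 9 and 17 counts in the control and 16, 16 and 17 with PM2.5. The FPKM were 0.262, 0.383 and 0.631 against 0.488, 0.508 and 0.555, and the groups overlapped. The log2 fold change of 0.34 was no larger than its SE of 0.35. It was 0.07 without control replicate 1 and 0.74 without control replicate 3, the lowest and the highest control library. This depth would not show a difference of that size. The control libraries varied by 43.8%, where counting alone gives 30.2%.

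Il4 (ENSMUSG00000000869, chromosome 11, 53602982 to 53618669, minus strand), the cytokine that induces Th2 cells and IgE, was near the limit of detection. It had 0, 5 and 2 counts in the control and 4, 0 and 2 with PM2.5, which is at most 0.181 FPKM in the control and 0.104 FPKM with PM2.5. The highest library of either group was thus a control one, and 1 library of each group held none. A count of 0 allows up to 0.108 FPKM in the shallowest control library. Il5 (ENSMUSG00000036117, chromosome 11, 53720794 to 53725106, plus strand), the growth factor of eosinophils, had 1 count, in PM2.5 replicate 3, and none in the 5 others. A count of 0 allows Il5 at least 0.0717 FPKM in each library, and a difference between the groups was not detectable for either gene. Together Il4, Il5 and Il13 held 7 to 19 counts per control library and 16 to 20 per PM2.5 library.

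Ranked by mean FPKM, the order in the control was Il9 (17.4 ± 2.88), Csf1 (14.3 ± 0.21), Csf2 (1.42 ± 0.12), Gata3 (0.803 ± 0.150), Il13 (0.425 ± 0.188), Il4 (0.0812 ± 0.0917), then Il3 and Il5 at 0 (SD, n = 3). Il9 and Csf1 overlapped in their ranges, as did Il4 with Il3 and Il5. With PM2.5 the order was Csf2 (31.6 ± 0.97), Il3 (7.81 ± 1.37), Il9 (6.89 ± 0.75), Csf1 (3.34 ± 0.01), Gata3 (1.01 ± 0.08), Il13 (0.517 ± 0.035), Il4 (0.0530 ± 0.0518) and Il5 (0.00854 ± 0.01479). Il3 and Il9 overlapped there, and Il4 and Il5. The lower end of the order, from Gata3 through Il13 to Il4, was the same in both groups, and the upper end was not.

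**Figure D2:**
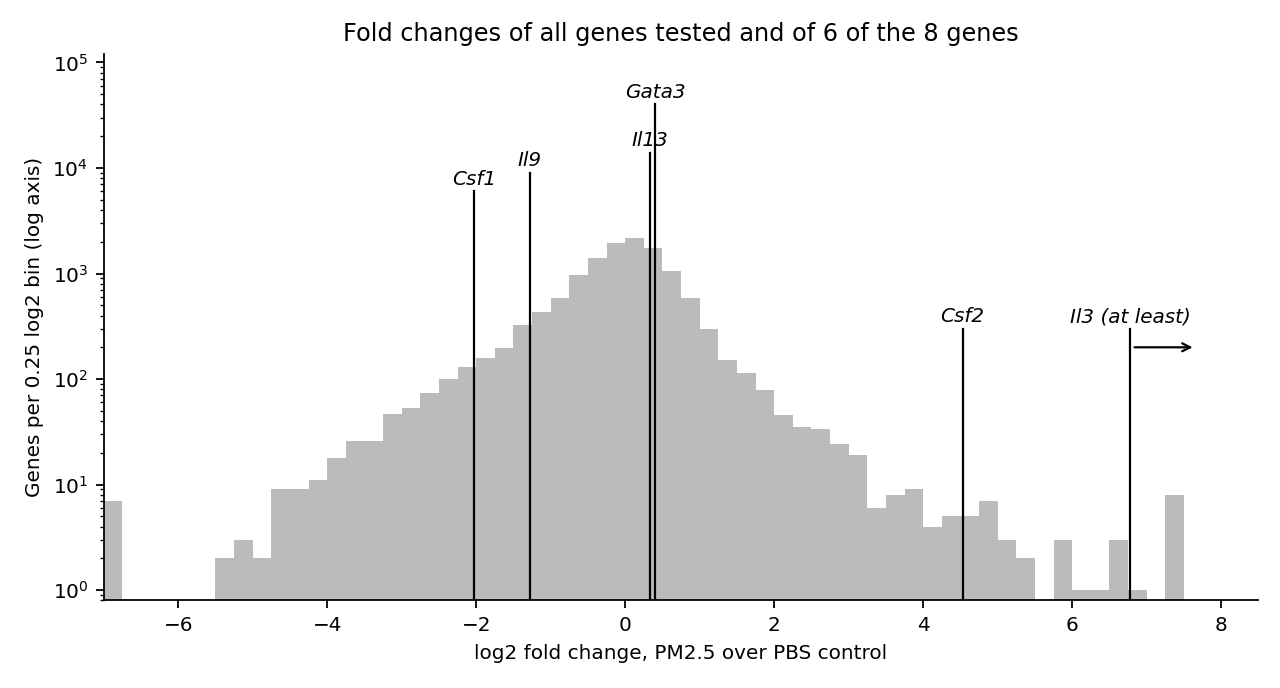
Histogram of the log2 fold change of all 12967 tested genes (horizontal axis; genes per bin on a log vertical axis), with lines at 6 of the 8 genes and the end bins holding genes beyond them. Csf2 at 4.53 and Il3, drawn at its lower bound with an arrow, lie in the thin right tail, Csf1 (-2.03) and Il9 (-1.28) to the left, and Il13 and Gata3 in the central mass.

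Il3, Csf2, Il5, Il13 and Il4 share a stretch of chromosome 11, in which Il3 and Csf2 start 17.6 kb apart, Il13 and Il4 16.0 kb apart, and Csf2 and Il5 528.9 kb apart. Extended by 100 kb each way, the stretch (53502982 to 54367277) held 18 other genes, 8 of them tested. Of these, 4 rose, 3 fell and 1 did not pass (median 0.08, against -0.01 for all tested genes). That is 87.5% of 8 genes called, beside 70.6% of all tested genes, a gap of about 1 gene from which nothing is read. The 4 rises lay nearer to Il3 and Csf2 than the 3 falls did, an order of few genes that was not tested. Acsl6, a fatty acid ligase that starts 36.5 kb beyond Il3, went from 0.708 ± 0.205 to 2.56 ± 0.20 CPM (log2 fold change 1.83, SE 0.22, edgeR adjusted p = 3.18e-05). P4ha2, a subunit of the collagen prolyl hydroxylase, 167 kb to the Il4 side, went from 2.11 ± 0.10 to 5.97 ± 0.07 CPM (1.50, SE 0.12, adjusted p = 1.15e-06). The carnitine transporter genes Slc22a21 (1.27, SE 0.30, adjusted p = 0.00299) and Slc22a5 (0.24, SE 0.08, adjusted p = 0.0239) followed at 287 and 376 kb. They belong to 1 gene family, and whether they share reads was not tested. Slc22a5 lost its call in 8 alternatives. At the Il4 end, the transcription factor gene Irf1 (-0.43), the kinesin gene Kif3a (-0.44) and the septin gene Sept8 (-0.44; its symbol stands as a date in the table) fell, with adjusted p = 0.000203, 0.000380 and 0.00331. Rad50, a DNA repair gene whose introns hold control elements of the Th2 cluster, stood at -0.09 (SE 0.05, adjusted p = 0.142). It was called lower, at -0.15 to -0.14, in 4 alternatives (library totals, the filter at 5 CPM and both limma fits). No change of the size seen for Csf2 or Il3 was measured for these 8 genes, whose log2 fold changes ran from -0.44 to 1.83.

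**Figure D3:**
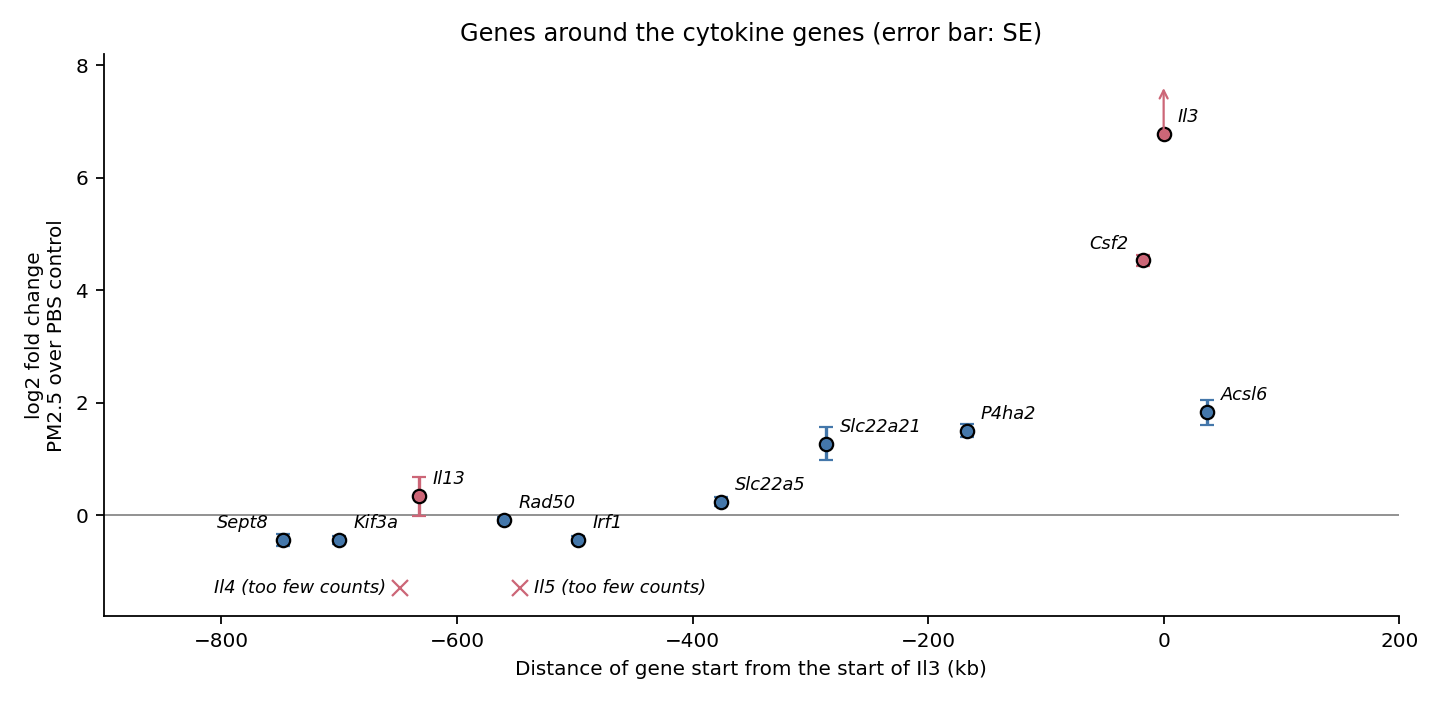
Log2 fold change (vertical axis, error bars SE) of the tested genes of the chromosome 11 stretch by the distance of their start from that of Il3 (horizontal axis, kb), with the cytokine genes in red and others in blue; Il3 is drawn at its lower bound and crosses mark the place of Il4 and Il5, which were not tested. The 5 genes from Slc22a21 to Acsl6 are all above 1, and those nearer Il4 lie between -0.44 and 0.34.

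The receptor genes for these cytokines were a separate list of 11, of which 7 were tested: 2 rose, 4 fell and 1 did not pass (median -0.19). Counts of this list and of those below stand beside 35.2% of all tested genes higher and 35.3% lower. Nothing is read from them. The chains that signal for IL-4 were abundant and lower. Il4ra, the alpha chain shared by the IL-4 and IL-13 receptors, fell from 564 ± 9.45 to 349 ± 1.93 CPM (SD, n = 3; log2 fold change -0.69, SE 0.03, adjusted p = 4.24e-09), and Il2rg, the common gamma chain used for IL-4 and IL-9, from 558 ± 13.9 to 489 ± 2.94 CPM (-0.19, SE 0.03, adjusted p = 0.000126). Il13ra1, the second chain of the IL-13 receptor, went down from 0.742 ± 0.158 to 0.209 ± 0.101 CPM (-1.82, SE 0.40, adjusted p = 0.00221). Csf2ra, the specific chain for GM-CSF, rose from 9.57 ± 1.33 to 14.7 ± 1.11 CPM (0.61, SE 0.11, adjusted p = 0.000470). Named after their values were seen, the other chains for GM-CSF and IL-3 were as follows. Il3ra, the specific chain for IL-3, went from 14.4 ± 1.09 to 12.3 ± 0.26 CPM (-0.22, adjusted p = 0.0275), a call lost with DESeq2 and without control replicate 2 or any 1 PM2.5 replicate (adjusted p = 0.0522 to 0.123). The shared beta chain gene Csf2rb stood at 0.687 ± 0.149 and 0.635 ± 0.037 CPM (-0.11, adjusted p = 0.744, and 0.05 without control replicate 3), and its near-identical copy Csf2rb2, with which it can share reads, at 0.197 ± 0.060 and 0.543 ± 0.124 CPM (1.43, adjusted p = 0.00921, 0.0810 with DESeq2). The beta chain was thus low beside the alpha chains, and both groups' values are uncertain for the copies. Csf1r, the M-CSF receptor, had 25 counts in the control group and 5 in the PM2.5 group, Il9r had 1 and 12 counts, Il5ra 4 and 2, and Il13ra2 was at 0 in all libraries.

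Among 12 other growth factor genes of blood cells, 3 were tested, and all 3 fell, beside 35.3% of all tested genes. Lif, which encodes leukaemia inhibitory factor, went down from 163 ± 3.59 to 27.3 ± 1.02 CPM (-2.58, SE 0.04, adjusted p = 1.13e-11). Flt3l, the growth factor of dendritic cell progenitors, went down from 26.0 ± 0.55 to 14.5 ± 0.34 CPM (-0.85, SE 0.06, adjusted p = 4.84e-07), and Osm, a relative of Lif, from 26.4 ± 0.41 to 22.7 ± 1.03 CPM (-0.22, SE 0.06, adjusted p = 0.00772). The 9 others, among them Csf3, Kitl, Il34 and Il6, had too few counts. In the control group 18 counts fell on Il34, the other ligand of the M-CSF receptor, and in the PM2.5 group 0. Il11 went the other way, with 2 counts in the control group and 15 in the PM2.5 group. None of the 3 tested genes of this list was higher as Csf2 and Il3 were. With 9 of the 12 untested, nothing is read from this for the list.

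Of 12 other genes of type 2 cells, 8 were tested, of which 3 rose, 4 fell and 1 did not pass (median -0.78). The chemokine receptor gene Ccr8 went down from 106 ± 5.55 to 16.3 ± 0.43 CPM (-2.70, SE 0.05, adjusted p = 3.82e-11). The steroid-producing enzyme gene Cyp11a1, a marker of Th2 cells, went from 86.9 ± 2.26 down to 20.1 ± 0.68 CPM (-2.11, SE 0.05, adjusted p = 1.07e-10), and the cytokine gene Il24 from 3.47 ± 0.26 to 0.908 ± 0.117 CPM (-1.93, SE 0.17, adjusted p = 3.41e-06). Ccr4, a chemokine receptor of Th2, Th17 and skin-homing cells, rose from 123 ± 1.24 to 295 ± 6.34 CPM (1.27, SE 0.03, adjusted p = 1.71e-10). Genes of the list moved both ways, as Il9 and Gata3 did, and as all tested genes did (35.2% higher and 35.3% lower).

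Among the 18 listed regulators of the type 2 cytokine genes, 16 were tested, of which 7 rose, 7 fell and 2 did not pass (median -0.04). Maf, a transcription factor that activates Il4, went down from 820 ± 12.5 to 266 ± 2.92 CPM (-1.63, SE 0.03, adjusted p = 1.26e-11). Irf4, which helps to switch on Il4 and Il9, rose from 1171 ± 20.6 to 2906 ± 23.8 CPM (1.31, SE 0.02, adjusted p = 2.93e-11). Zfpm1, which encodes FOG-1, a partner that restrains GATA-3, rose from 38.9 ± 0.51 to 131 ± 5.31 CPM (1.75, SE 0.04, adjusted p = 1.53e-10), and Stat5a, which relays IL-2 signals, from 293 ± 10.1 to 575 ± 4.71 CPM (0.97, SE 0.03, adjusted p = 1.22e-09).

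All 16 listed regulators of GM-CSF in T cells were tested: 8 rose, 6 fell and 2 did not pass (median 0.14). Bhlhe40, a transcription factor that T cells need for GM-CSF production, rose from 403 ± 1.95 to 972 ± 9.61 CPM (1.27, SE 0.02, adjusted p = 3.62e-11). The NF-kB subunit genes Nfkb1 (552 ± 5.03 to 1233 ± 32.8 CPM; 1.16, SE 0.03, adjusted p = 1.57e-10) and Rel (84.2 ± 2.03 to 229 ± 8.81 CPM; 1.44, SE 0.04, adjusted p = 3.03e-10) also rose. The AP-1 gene Jun went down from 203 ± 2.33 to 90.2 ± 2.80 CPM (-1.17, SE 0.03, adjusted p = 6.13e-10). Named after their values were seen, Nfatc2 and Ets1, which encode factors that bind the Csf2 promoter, fell (log2 fold changes -2.29 and -1.89, edgeR adjusted p = 0.000667 and 0.00634), with uneven PM2.5 libraries. Nfatc2 stood at 106, 68.2 and 68.1 CPM there, and Ets1 at 157, 294 and 150.0 CPM. The other NFAT genes of the list, Nfatc1 and Nfatc3, rose by less (0.19 and 0.20, edgeR adjusted p = 0.000219 and 0.000146). Genes of this list moved in both directions, as all tested genes did (35.2% higher and 35.3% lower). Their part in the level of Csf2 was not tested.

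**Figure D4:**
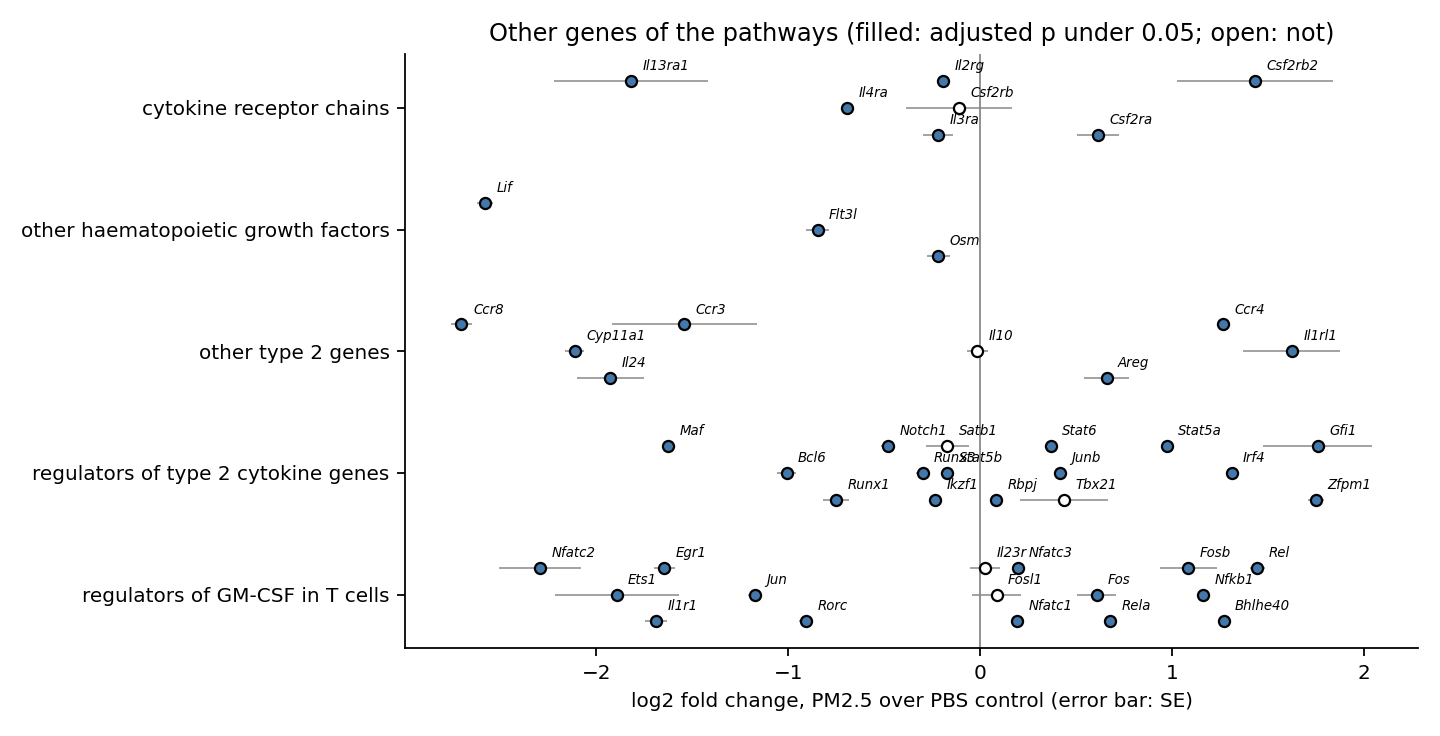
Log2 fold change (horizontal axis, error bars SE) of each tested gene of the 5 lists (rows), filled where the adjusted p was under 0.05. Each list but that of the other growth factors holds genes on both sides of 0, with Ccr8, Lif and Nfatc2 farthest to the left and Gfi1 and Zfpm1 farthest to the right.

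The genes most like each of the 4 members with at least 10 counts in every library were sought among 11566 tested genes, by the root mean square distance of log2 CPM over the 6 libraries after centring on the control mean. Nearest to Csf2 were the surface receptor gene Slamf7 (distance 0.06), the glycine transporter gene Slc6a9 (0.11) and the stress-response gene Ndrg1 (0.11), with log2 fold changes of 4.41, 4.37 and 4.53. Only 9 genes lay within 0.25 of Csf2, against 213 for Csf1, 468 for Il9 and 2458 for Gata3, so the patterns of the last are common ones. Nearest to Csf1 were Frmd4b, the zinc importer gene Slc39a10 and the sulfotransferase gene Ust (0.04 to 0.05), and to Il9 Mex3b, which encodes an RNA-binding protein, the interferon-inducible gene Ifitm1 and Wbscr27 (each 0.09). Those of Gata3 were Npff, Zbtb26 and Supt3 (each 0.09). With 2 groups of 3 libraries the likeness reflects the group difference and little else.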

How the data were processed

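The genes and lists were chosen with earlier results of these data known. Reads were placed with TopHat2 2.0.6 on mm10, per the submitters' processing notes. How reads were counted, with which annotation and strand setting, is not given in the sources used here, so overlapping and near-identical genes are uncertain. The table deposited by the authors gives raw counts per gene and FPKM, per the file headers. Over the 12207 genes with more than 100 counts, FPKM equals the count over the library total and 1 length per gene to within 0.0694%.

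Counts were tested in edgeR 4.0.16 (R 4.3.3) with filterByExpr (minimum count 10, minimum total 15), TMM scaling, a robust glmQLFit and glmQLFTest (two-sided) over all 6 libraries, with Benjamini-Hochberg adjustment over the 12967 genes tested. The code was tested on simulated counts. CPM in the text are TMM-scaled, except that sums of markers and the means of their leading genes use library totals. The SE was taken as the size of the log2 fold change divided by the root of the F statistic. Replicates of a group differed by a chi-square of 7.57 to 9.89 per degree of freedom and each counted as 1 sample. All 8 genes are named, with the tested genes of the chromosome 11 stretch, up to 4 genes with the smallest adjusted p per list and 3 nearest genes per member. Alternatives used DESeq2 1.42.0, limma 3.58.1 and others given in the closing section. Promoters come from RefSeq (GRCm38.p6) and strands from GENCODE M21.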

Additional observations from a re-analysis of the deposited data

How the results depend on the processing

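Results were recomputed under 13 alternatives: DESeq2, library totals, no filter, a filter at a mean of 5 CPM, limma on log2(FPKM + 1) and on log2(FPKM + 0.1), a replicate block, and leaving out each library. Among the genes followed through the alternatives, the sign turned only for Csf2rb, which passed in none of them (-0.11, and 0.0502 without PBS control replicate 3). The 8 genes were chosen on this contrast, so their values under the alternatives show only how far the description moves. Gata3, too low for the filter at 5 CPM and for the limma fits, lost its call with DESeq2 (0.404), library totals (0.341) and the replicate block (0.412), and in the fits without PBS control replicate 1 (0.256) and without PM2.5 replicate 1 or 3. Over the fits that leave out a library its log2 fold change ran from 0.256 to 0.513. The cause was not tested. The filter at 5 CPM tested 3 of the 8 genes and left 1 of the higher calls, that of Csf2. Receptor chains called higher went from 2 to 1 with DESeq2, the filter at 5 CPM and both limma fits, and leaving out 1 library gave 1 to 2. Other type 2 genes called lower went from 4 to 2 with the filter at 5 CPM and both limma fits. Those fits and that filter tested fewer genes. Same-numbered libraries of the groups did not deviate together (correlations of 0.01 to 0.05), so the numbers were not taken as pairs. The replicate block called 4534 genes higher and 4469 lower, against 4567 and 4582. Library totals moved the median of all genes by -0.06 on the log2 scale. Depth limits Il4, Il5 and Il13, whose counts cannot show a difference of modest size.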
